A study of Caenorhabditis elegans with 10 samples.

Results

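The wild-type N2 transcriptome was described from the 5 N2 libraries of a series of 10, chosen by the strain label alone. The other 5 libraries came from the strain F01D4.5(baf20), named after the gene F01D4.5 and grown in the same way, and were used here only to see whether genes that varied among N2 libraries also varied there. N2 is the standard laboratory strain of the nematode Caenorhabditis elegans, and the labels name no transgene or treatment for it. All worms of both strains were released from arrest in the first larval stage (L1) and fed for 48 hours at 20 °C on a lawn of Escherichia coli OP50, the usual laboratory food of worms. Each sample pooled 1000 to 2000 whole worms, so a level is an average over animals and over all tissues, in which fewer cells of a type and less RNA per cell cannot be told apart. Polyadenylated RNA was sequenced with a stranded kit, and the series' design text calls the 5 samples biological replicates. No strain is compared with the other in level, and no test was made: every value describes these 5 libraries and their spread.

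Hermaphrodites grown from arrested L1 larvae pass through several larval stages, each closed by a moult in which the epidermis builds a new collagen cuticle. Cuticle collagen genes are transcribed in pulses that come with the moults, and a separate set of collagens serves the adult cuticle. Sperm are made first, in the last larval stage, after which the germ line turns to oocytes and the intestine starts to make yolk protein for them. A culture that is passing from the last larval stage into adulthood therefore holds messages of cuticle, sperm, oocyte and yolk together.

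The libraries held 9059910 to 11056979 counts. Counts were scaled to CPM, counts per 1000000 of the library size, with the trimmed mean of M-values, and 3 counts corresponded to 0.271 to 0.319 CPM. Of 57827 deposited rows 57515 were matched to genes, and these rows held 99.78% of the N2 counts. Summing gave 46746 entries, called genes here, among which the 312 unmatched rows were kept. The authors' rows are transcripts, and 5543 genes had more than 1 row. Such genes held 7.17% of counts, and several of them that are known to be abundant were near 0: the alpha-tubulin gene tba-1 and the beta-tubulin gene tbb-2 had no count in any N2 library, and the ribosomal protein gene rps-2 was at 0.0801 ± 0.0855 CPM (SD, n = 5). Protein-coding genes with 1 row had a median of 4.93 CPM and those with several rows a median of 0.671 CPM. Levels of genes with several rows are therefore not read as absent, and every rank, share and list below is a rank, share or list of what was counted.

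Replicate 5 stood apart from the other N2 libraries. The first principal component of log2 CPM held 75.9% of the variance and placed replicate 5 at 57.8, replicates 2, 3 and 4 at -12.1, -1.88 and -2.12, and replicate 1 at -41.7. Replicates 3 and 4 were the closest pair, with 31 genes at least 2-fold apart, and replicates 1 and 5 the farthest, with 1755. The closest pair still differed by more than counting error, with a chi-square of 15.3 for each degree of freedom. That sum includes the ribosomal RNA gene rrn-3.1, with 89380 counts in replicate 3 and 303987 in replicate 4. The value cannot show whether samples were grown separately. All 5 were counted as separate samples because the design text calls them biological replicates. Because of replicate 5, spreads are given over all 5 libraries and again over replicates 1 to 4.

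Of 8926 genes with a mean of at least 5 CPM, 2230 (25.0%) had a highest library at least 2-fold over the lowest on the log2 CPM scale with a prior count of 2. Over replicates 1 to 4, 819 (9.18%) did. Replicate 5 was the highest library for 1550 of the 2230 genes (69.5%) and replicate 1 the lowest for 1173 (52.6%). The minimum was a mean over all 5 libraries, so a gene could pass it through replicate 5 alone. The same holds for the counts of members below. Without replicate 5, and with libraries rescaled, 8798 genes had a mean of at least 5 CPM. Over all 8926 genes, whatever their range, replicate 5 was highest for 35.3% and lowest for 39.1%. Replicate 1 was highest for 29.5% and lowest for 26.9%. Counts of members below are read against these shares. Counts among members that spanned 2-fold are read against the 2230 genes instead. Of these, replicate 5 was highest for 69.5% and lowest for 19.4%. The median SD of log2 CPM was 0.253 over 5 libraries, and the biological coefficient of variation, which leaves out counting error, was 0.293; without replicate 5 the latter was 0.176. Spread depended on level: 37.1% of genes at 5 to 10 CPM spanned 2-fold, 16.8% of genes at 50 to 500 CPM, and 22.6% of the 283 genes at 500 CPM and over. Counting error gave a median SD of 0.0153 in that top group, where the observed median SD was 0.228.

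**Figure D1:**
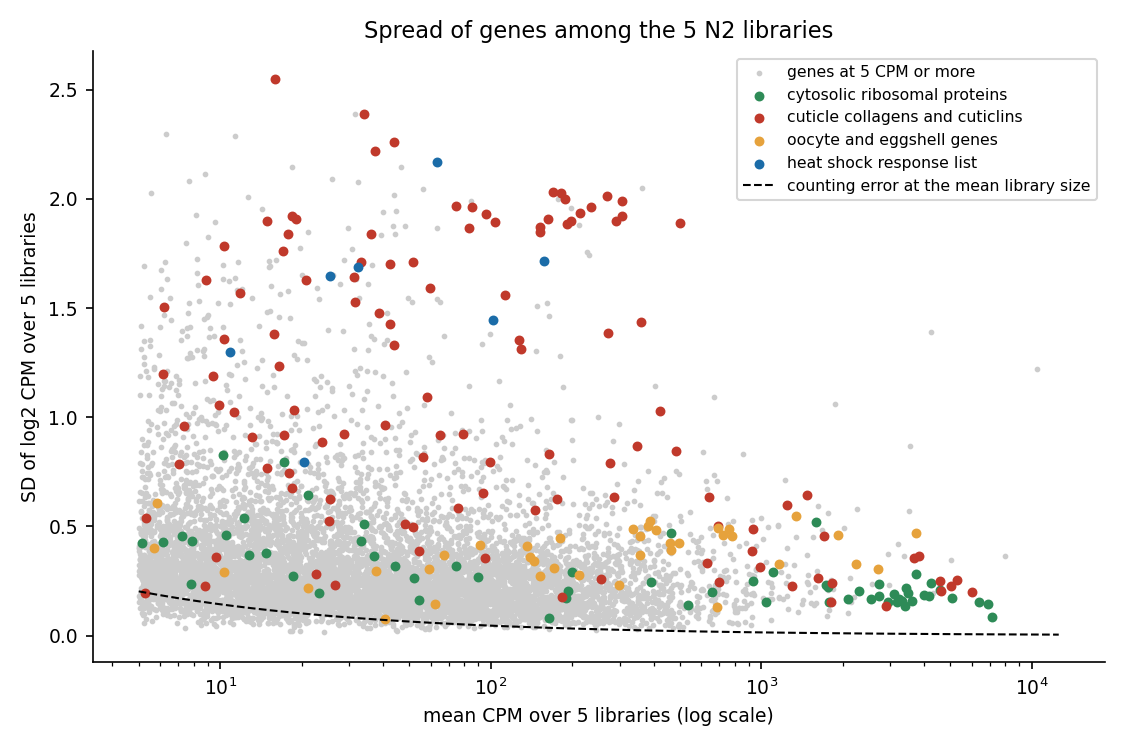
Mean CPM (horizontal, log scale) against the SD of log2 CPM over the 5 N2 libraries (vertical) for the 8926 genes at 5 CPM or more, with 4 groups coloured; the dashed line is the SD that counting error alone gives at the mean library size. Cuticle collagens and the heat shock list reach an SD above 2, while the cytosolic ribosomal proteins with the most counts lie under 0.3.

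Of 19648 protein-coding genes, 2368 had no count in any of the 5 libraries, 5018 had a mean of 5 to 50 CPM, and 280 were at 500 CPM or over. A small set of genes carried much of each library. The 10 genes with the most counts held 6.53% of them, the top 100 held 27.4% and the top 1000 held 62.4%, and 510 genes held 50% of all counts. Library by library, the number that held 50% was 528, 484, 527, 477 and 452, lowest in replicate 5.

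By mean CPM, which rewards long messages as well as abundant ones, the 20 highest genes were 8 cytosolic ribosomal protein genes, 6 cuticle collagens, 2 genes of the mitochondrial genome, and 1 each of ribosomal RNA, yolk protein, oocyte and uncharacterised genes. The first was rrn-3.1, a large-subunit ribosomal RNA gene from a repeat with many copies (chromosome I, 15064838 to 15068346, plus strand, build WBcel235), at 2896, 4792, 9517, 27645 and 7357 CPM in replicates 1 to 5. The libraries were made by selecting polyadenylated RNA, and replicate 4 lay far above the other 4, which themselves differed more than 3-fold. Over those 4 libraries its mean was 6141 CPM, which ranked 5. The second, vit-5, encodes a yolk protein and lies on chromosome X (3403471 to 3408603, plus strand). It stood at 9297, 8149, 7746, 9621 and 5096 CPM, lowest in replicate 5. The ribosomal protein genes rps-7 and rps-1 followed with 7126 ± 433 and 6881 ± 689 CPM (SD, n = 5), and then rla-0, the stalk protein of the large subunit, with 6372 ± 683 CPM.

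Per kilobase of exon the order changed. On this scale, counts per kilobase scaled to a sum of 1000000, the 10 highest genes of at least 300 exon bases were rps-25, rps-7, rpl-36.A, ubq-2, rps-1, rpl-27, rpl-36, rps-17, rps-9 and rla-0, all of which encode ribosomal proteins or, for ubq-2, ubiquitin fused to one. The level per kilobase of rps-25 was 12035 ± 994 and that of rps-7 was 10693 ± 329, both SD over 5 libraries. The intervals of 1 SD overlapped for 6 of the 9 pairs of neighbours in this order, such as ubq-2 (8424 ± 623) and rps-1 (8418 ± 758), so the order is not settled there; they did not overlap from rps-25 to rps-7, from rps-7 to rpl-36.A and from rps-17 to rps-9. On the same scale vit-5 was at 1757 ± 465 and rrn-3.1 at 3175 ± 3085, and the collagen col-139 at 6447 ± 1091.

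**Figure D2:**
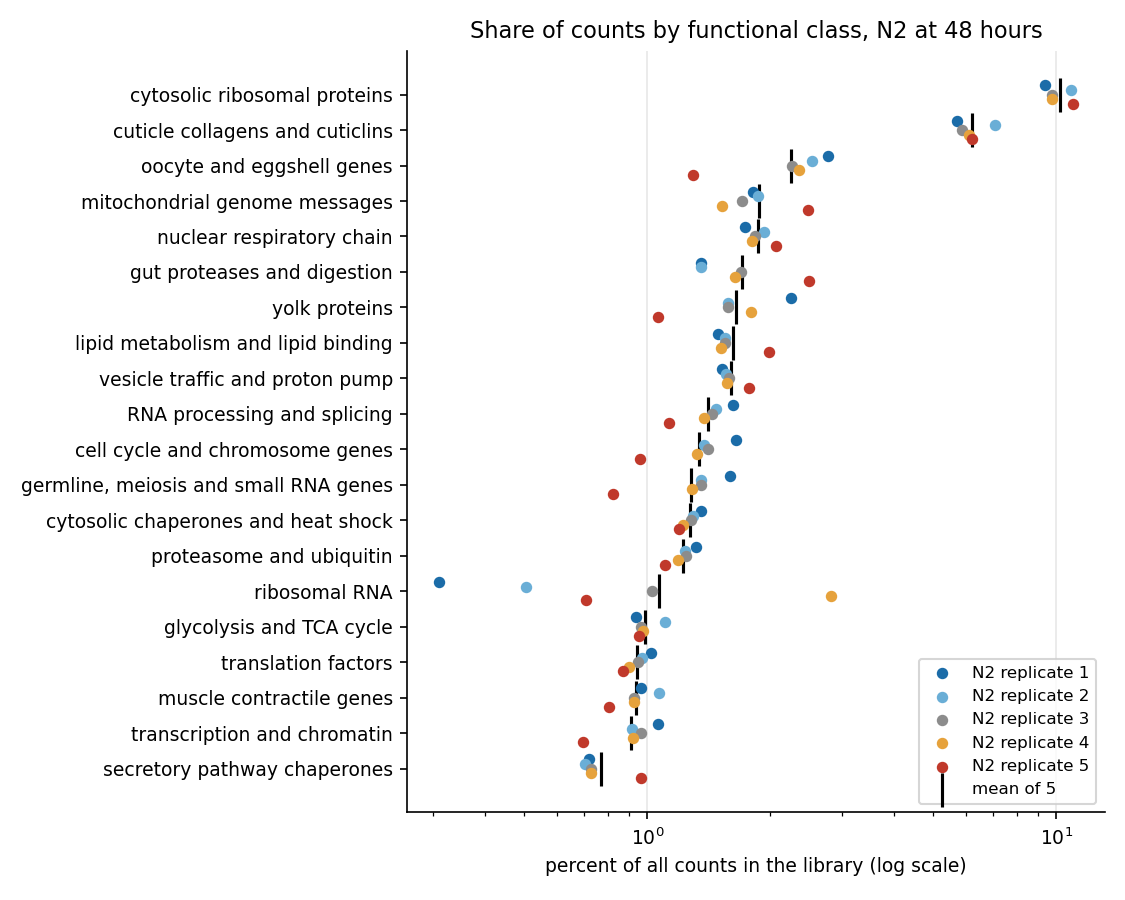
Percent of all counts in each N2 library (horizontal, log scale) for the 20 functional classes with the highest mean share, apart from non-coding RNA and the classes of remaining genes; points are libraries and the black bar is the mean of 5. Ribosomal proteins and collagens lead in every library, the points of replicate 5 lie apart for several classes, and ribosomal RNA spreads the most.

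Genes were sorted into 38 classes by name, biotype or chromosome. Classes other than the remaining protein-coding genes held 47.4% of counts. Cytosolic ribosomal proteins led with 9.37, 10.9, 9.74, 9.77 and 10.99% of counts in replicates 1 to 5, a mean of 10.2 ± 0.732% (SD, n = 5). On the per-kilobase scale their share was 19.5%. Both values are low in one respect, since 54 of the 86 genes had several rows. Of the 60 that reached 5 CPM, 15 spanned 2-fold (25.0%), the same share as over all genes. Of the same 60, 43 were highest in replicate 5, against 35.3% of all genes. Over replicates 1 to 4 the median SD of log2 CPM in this class was 0.17. Among its leading members rps-25 was at 4169, 4284, 4342, 4224 and 5848 CPM, close together in replicates 1 to 4 and higher in replicate 5. The small-subunit gene rps-7 was at 6793, 7386, 6667, 7060 and 7722 CPM, with a highest library 1.16 times the lowest.

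Energy metabolism came next among the housekeeping classes. Messages of the mitochondrial genome held 1.81, 1.86, 1.71, 1.53 and 2.48% of counts. COX1, which encodes a core subunit of cytochrome c oxidase, was at 4672, 4731, 4326, 4007 and 7389 CPM, and COX3, another subunit, at 3194, 3032, 2801, 2745 and 5067 CPM. Both were highest in replicate 5, whereas CYTB, the cytochrome b gene, was highest in replicate 2 at 5113 CPM and reached 4682 CPM in replicate 5. Of 12 mitochondrial protein genes 10 were highest in replicate 5. Respiratory chain genes of the nucleus held 1.87 ± 0.126% of counts, and 5 of their 54 members at 5 CPM spanned 2-fold. Mitochondrial ribosomal proteins were among the steadiest classes, with 1 of 62 members spanning 2-fold and a share of 0.72 ± 0.0251%. Within these ranges 41 of the 54 and 40 of the 62 were highest in replicate 5, against 35.3% of all genes.

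Cuticle collagens and cuticlins, the structural proteins of the exoskeleton, were the second functional class with 5.72, 7.07, 5.89, 6.11 and 6.23% of counts. That narrow range hid a split by level. The 23 members at 500 CPM and over held 5.39, 6.4, 5.21, 5.4 and 4.15% of counts, and 17 of them were lowest in replicate 5. The 95 members at 5 to 500 CPM held 0.326, 0.672, 0.677, 0.706 and 2.07%. Of these, 83 were highest in replicate 5 and 85 were lowest in replicate 1. Members could enter this group through replicate 5 alone, as col-172 did with a mean of 4.89 CPM over replicates 1 to 4. In all 93 of 118 collagens and cuticlins (78.8%) spanned 2-fold, against 25.0% of all genes. Their median SD of log2 CPM was 0.995, and 0.698 over replicates 1 to 4.

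The abundant group was led by col-139 at 5308, 7267, 5834, 6470 and 5221 CPM. Next came col-20 at 5792, 6335, 5202, 5191 and 3958 CPM. The adult collagen col-19 (chromosome X, 421707 to 422691, plus strand), widely used as a marker of the adult cuticle, was at 4761, 5286, 4535, 4869 and 3635 CPM. It was counted at a high level in every library, and the highest was 1.45 times the lowest. Named members of the low group included dpy-5, a collagen whose loss makes worms short and fat, at 16.3, 118, 134, 138 and 768 CPM. The collagen rol-6, whose altered forms make worms roll, was at 5.23, 30.2, 42.4, 40.4 and 253 CPM. In both genes replicates 2 to 4 lay close together, replicate 1 far under them and replicate 5 far above them, with 47.02-fold and 48.3-fold between the extremes. Replicate 5 thus combined the lowest level of col-19 with the highest of dpy-5 and rol-6.

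Genes of moulting and the apical extracellular matrix, such as hedgehog-related and patched-related genes, held a small share: 0.214, 0.261, 0.287, 0.285 and 0.524% of counts. Of 76 members at 5 CPM, 49 (64.5%) spanned 2-fold, against 25.0% of all genes. Of these 49, 48 were highest in replicate 5, where the share over all genes that spanned 2-fold was 69.5%. Here too the minimum could be passed through replicate 5 alone. Over replicates 1 to 4 the median SD was 0.44, against 0.667 with replicate 5. The members with the most counts did not all follow this order: grd-5, a hedgehog-related gene, was at 167, 155, 177, 174.1 and 391 CPM, but ptr-2, a patched-related gene, was at 286, 215, 199, 223 and 165 CPM, lowest in replicate 5.

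**Figure D3:**
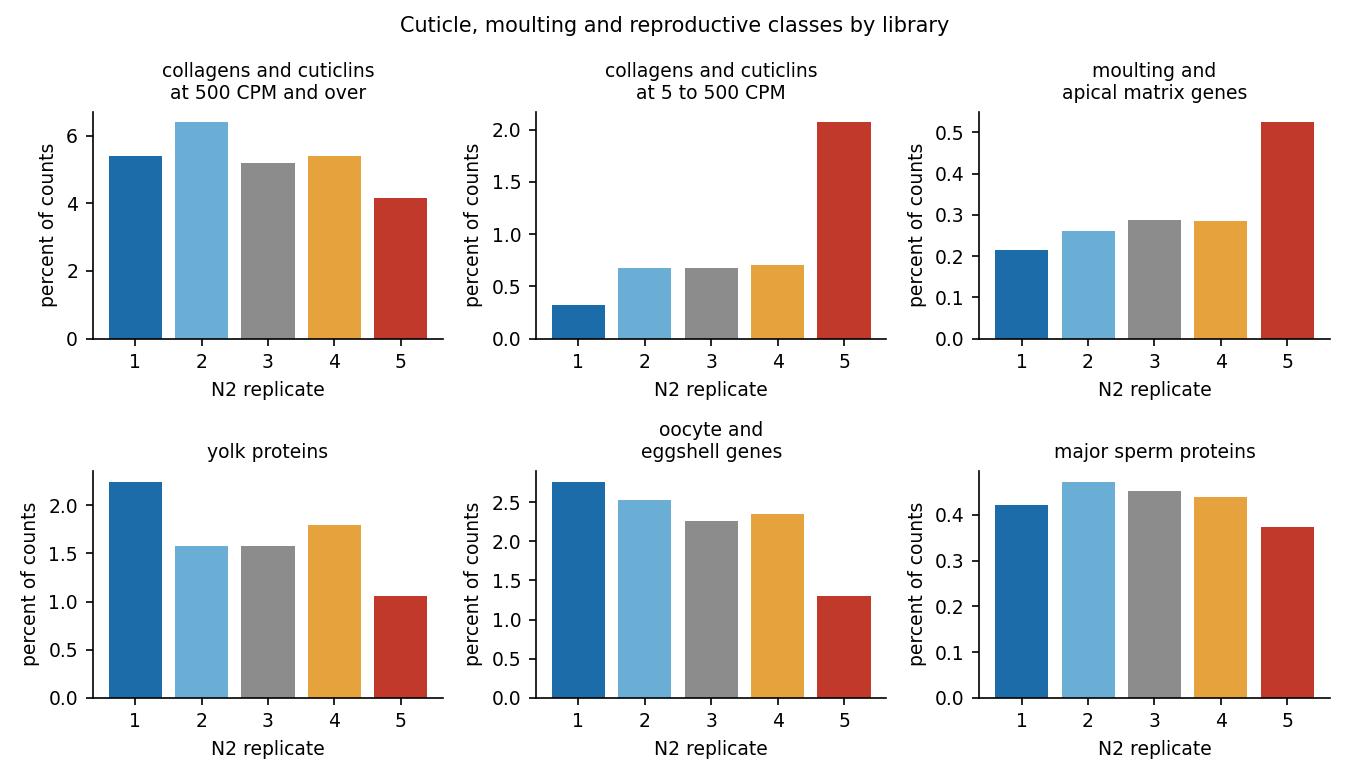
Percent of counts in each N2 library for 6 groups of genes, as bars that start at 0, each panel with its own vertical scale. The low collagen group and the moulting genes are highest in replicate 5 and lowest in replicate 1, yolk and oocyte genes are highest in replicate 1 and lowest in replicate 5, and major sperm proteins differ little.

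Messages of reproduction made up several percent of counts. Oocyte and eggshell genes held 2.76, 2.52, 2.26, 2.35 and 1.29%. Of 38 members at 5 CPM, 34 were lowest in replicate 5, against 39.1% of all genes. Of the 38, 21 (55.3%) spanned 2-fold, against 25.0% of all genes. All 21 had replicate 5 lowest, where the share over all genes that spanned 2-fold was 19.4%. Over replicates 1 to 4 the median SD was 0.187, against 0.396 over 5 libraries. The RNA helicase gene cgh-1, expressed in germ cells and oocytes and one of the 20 genes with the most counts, was at 4353, 4400, 3670, 4239 and 2037 CPM. The eggshell gene cbd-1 was at 1996, 1316, 1304, 1436 and 699 CPM. The RNA-binding gene pos-1, whose product acts in oocytes and the early embryo, was at 674, 532, 491, 490 and 301 CPM. In all 3 genes replicate 5 lay below every other library.

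Yolk protein genes held 2.25, 1.57, 1.57, 1.79 and 1.06% of counts, but 0.357% on the per-kilobase scale, since their messages are long. The gene vit-1 was at 6138, 2936, 2956, 3532 and 2100 CPM, and vit-2, which had 2 rows, at 2292, 1920, 2021, 2206 and 2023 CPM. Replicate 1 was highest for vit-1 and vit-2, while vit-5 was highest in replicate 4. Germline, meiosis and small RNA genes held 1.59, 1.35, 1.35, 1.29 and 0.824% of counts; 73 of 80 were lowest in replicate 5, against 39.1% of all genes, and 18 (22.5%) spanned 2-fold, near the 25.0% of all genes. Within this class the Argonaute gene wago-1 was at 1318 ± 268 CPM and the Vasa-related helicase glh-1 at 1179 ± 214 CPM (SD, n = 5).

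Sperm messages had small spreads. Major sperm proteins, the cytoskeletal proteins of nematode sperm, held 0.422, 0.472, 0.452, 0.44 and 0.374% of counts, and 1 of 28 members at 5 CPM spanned 2-fold. Of their leading members, msp-31 was at 318 ± 16.22 CPM and msp-50 at 298 ± 10.8 CPM (SD, n = 5). Major sperm protein genes are near-identical copies, and the sources used here do not say how reads common to several copies were counted. Other sperm genes had 3 of 51 members spanning 2-fold. The median SD was 0.136 for major sperm proteins and 0.171 for other sperm genes, where that of all genes was 0.253. Both classes had their lowest share in replicate 5, and 14 of the 28 major sperm protein genes and 34 of the 51 other sperm genes were lowest there, against 39.1% of all genes.

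Classes of digestion, lipid metabolism and defence had their highest share in replicate 5. A class of digestive proteases, lysozymes and antimicrobial peptides held 1.35, 1.35, 1.69, 1.64 and 2.48% of counts. Of its 56 members at 5 CPM, 38 (67.9%) spanned 2-fold, against 25.0% of all genes. Of the 38, 31 were highest in replicate 5, where the share over all genes that spanned 2-fold was 69.5%. The aspartyl protease asp-3 was at 2304, 2614, 3090, 3111 and 4954 CPM, and the aspartyl protease asp-6 at 2241, 2194, 2928, 3249 and 4049 CPM. Lipid metabolism and lipid binding genes held 1.49, 1.55, 1.55, 1.52 and 1.98%, with 47 of 100 spanning 2-fold. Detoxification enzymes held 0.474, 0.485, 0.507, 0.484 and 0.733%, with 50 of 95 spanning 2-fold. C-type lectins, sugar-binding proteins many of which are made in the intestine, held 0.594, 0.618, 0.721, 0.743 and 0.983%. One of its leading members, clec-87, was instead highest in replicate 1 and lowest in replicate 5, at 1264, 1054, 951, 944 and 585 CPM. In these last 3 classes the median SD over replicates 1 to 4 was 0.191, 0.232 and 0.252.

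Outside these classes, the remaining named protein-coding genes held 32.65, 31.05, 32.32, 31.37 and 30.32% of counts, lowest in replicate 5. Of 3103 members at 5 CPM, 1035 were highest there and 1293 lowest, against 35.3% and 39.1% of all genes. Genes with a sequence name only held 20.86, 20.39, 21.2, 20.58 and 22.05%, highest in replicate 5. Of 3662 members at 5 CPM, 1190 were highest there and 1442 lowest. Some genes of both groups were highest in replicate 5. The infection response gene irg-7 was at 1636, 1739, 3664, 3859 and 6883 CPM. The methionine synthase gene metr-1, which needs vitamin B12, was at 1165, 1106, 1958, 1752 and 2407 CPM. For both genes replicates 1 and 2 were alike, replicates 3 and 4 were alike and higher, and replicate 5 was highest. The gene C17F4.7 (chromosome II, 3245087 to 3246015, minus strand), which the annotation names by its sequence only, ranked 16 by CPM with 3073, 672, 4089, 3955 and 9405 CPM. It was the most variable of the 20 highest genes, with a highest library 13.99 times the lowest, and its low library was replicate 2.

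Marker lists for tissues were used to check that the libraries held the tissues of a whole worm. Among body wall muscle markers, the troponin I gene unc-27 was at 1779 ± 147 CPM and the myosin gene myo-3 at 502.5 ± 44.2 CPM (SD, n = 5). The other main markers of that list, unc-54 and unc-15, had several rows and were under 5 CPM. Among neuronal markers the synaptobrevin gene snb-1 was at 241 ± 12.98 CPM, and 7 of 12 members, all with several rows, were under 5 CPM. The summed neuronal list was at 251, 282, 283, 295 and 294 CPM, and the summed body wall muscle list at 2530, 2398, 2255, 2234 and 2085 CPM. Most of these sums came from snb-1 and unc-27. Only 5 of 12 neuronal and 3 of 10 body wall muscle members reached 5 CPM, and none of these spanned 2-fold. The list of male tail genes summed to 16.8, 26.2, 23.1, 27.5 and 56.6 CPM, most of it from nlp-8 and ram-5, while the male sensory genes lov-1 and pkd-2 were at 0.163 ± 0.189 and 0.241 ± 0.284 CPM.

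The pharynx list had its highest sum in another library. Its sum was 1875, 2577, 1810, 2066 and 1718 CPM, highest in replicate 2. Most of that sum came from 1 muscle contractile gene, mlc-1, at 1635, 2172, 1640, 1867 and 1493 CPM. Of 10 members 4 reached 5 CPM, and 1 of these spanned 2-fold. Among the members under 5 CPM, 5 had several rows. The whole class of muscle contractile genes, which holds mlc-1, was also highest in replicate 2, with 0.9672, 1.071, 0.9302, 0.9305 and 0.808% of counts. Of its 29 members at 5 CPM, 13 were highest there, against 17.5% of all genes. The pharyngeal myosin gene myo-2 was at 99.5, 228, 68.8, 84.9 and 79.3 CPM, so that replicate 2 lay more than 2-fold above each of the others. The intestinal protease cpr-1, at 277, 563, 366, 428 and 425 CPM, was also highest in replicate 2. The intestine list that holds cpr-1 was highest in replicate 5, with sums of 571.8, 837.5, 691.2, 788.3 and 1190 CPM. Also highest in replicate 2 was nlp-29, an antimicrobial peptide gene of the epidermis, at 33.2, 129, 49.2, 60.8 and 72.1 CPM. In the class of neuropeptides and insulins, where nlp-29 was not placed, 24 of 52 members at 5 CPM (46.2%) spanned 2-fold, against 25.0% of all genes. All 24 were instead highest in replicate 5, as were 69.5% of all genes that spanned 2-fold.

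The 12 most variable genes were col-172, D2092.8, col-131, R12E2.15, lips-9, cut-2, col-65, hsp-16.41, H10E21.4, ZK180.5, col-182 and lgc-21. Their SD of log2 CPM was 2.09 to 2.55. The collagen col-172 (chromosome X, 6672819 to 6674423, plus strand) was at 0.271, 2.98, 9.48, 6.82 and 60.4 CPM, the first of which is 3 counts. The collagen col-131 was at 1.08, 7.92, 14.7, 17.3 and 129 CPM, and the cuticlin cut-2 at 1.62, 30.1, 19.8, 26.5 and 141 CPM. In 11 of the 12 genes replicate 5 was the highest library, and in 11 replicate 1 was the lowest; 4 of the 12 had 3 or fewer counts in their lowest library, so no fold is given for them.

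Names in this group point to cuticle in 5 cases: col-172, col-131, col-65, the cuticlin cut-2 and col-182, which is annotated as a pseudogene. The gene lips-9, a lipase-related gene, was at 0.271, 4.63, 5.43, 8.55 and 37.9 CPM. The ligand-gated ion channel gene lgc-21 was at 1.53, 6.27, 13.8, 14.4 and 93.0 CPM. Ranked by their spread among replicates 1 to 4, the 6 most variable genes were hsp-16.41, col-172, hsp-70, cut-2, lips-9 and ZK180.5, with hsp-16.41 and hsp-70 among them. The minimum of 5 CPM was taken over all 5 libraries; over replicates 1 to 4 the means of col-172 and lips-9 were 4.89 and 4.72 CPM, so these 2 pass it only through replicate 5.

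**Figure D4:**
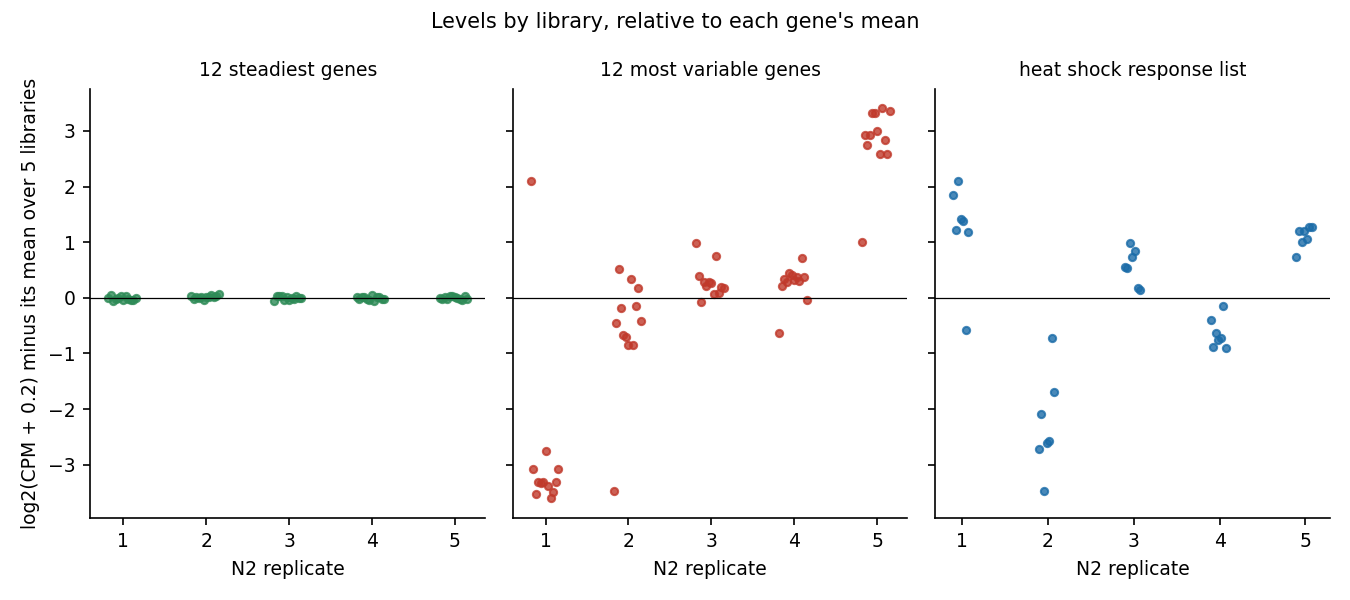
Level of each gene by N2 replicate, as log2(CPM + 0.2) minus the gene's own mean over 5 libraries, for the 12 steadiest genes, the 12 most variable genes and the 7 genes of the heat shock list at 5 CPM or more; each point is 1 gene in 1 library. The steadiest genes lie on the zero line, most variable genes are low in replicate 1 and high in replicate 5, and most heat shock genes are low in replicates 2 and 4.

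The heat shock genes followed a pattern of their own. Small heat shock proteins of the hsp-16 family and inducible hsp-70 are chaperones that are nearly silent in unstressed worms and strongly induced by heat and other stress to proteins. The summed level of the 9 listed genes was 832, 55.1, 425, 185 and 563 CPM in replicates 1 to 5, 15.1-fold from replicate 2 to replicate 1. All 7 members at 5 CPM spanned 2-fold, against 25.0% of all genes. The small heat shock protein gene hsp-16.41 (chromosome V, 1805178 to 1805875, plus strand) was at 151, 2.98, 69.1, 22.6 and 70.4 CPM, and hsp-70 at 372, 15.5, 151, 78.7 and 171 CPM. The related gene F44E5.4 was at 174.2, 17.4, 108, 40.2 and 171 CPM. In these 3 genes replicate 1 was highest, replicate 2 lowest and replicate 4 second lowest, an order that differs from that of the collagens. Several hsp-16 and hsp-70 genes are close copies of each other, and reads may be split among them.

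Most other chaperones had smaller ranges. Cytosolic chaperones and heat shock proteins as a class, which includes some of the listed heat shock genes, held 1.35, 1.29, 1.28, 1.22 and 1.19% of counts, and 11 of 56 (19.6%) spanned 2-fold; without the listed genes 6 of 51 (11.8%) did. The mitochondrial chaperone hsp-6 was at 1906, 1991, 1901, 1815 and 1484 CPM, and the chaperonin subunit cct-1 at 914 ± 31.6 CPM (SD, n = 5). Another leading member of the class, cyn-5, did span 2-fold, at 775, 825, 929, 875 and 1661 CPM. Chaperones of the secretory pathway were highest in replicate 5, with 0.721, 0.704, 0.727, 0.728 and 0.966% of counts. The list of the endoplasmic reticulum stress response summed to 594, 536, 672, 619 and 1104 CPM. Most of it came from pdi-6, at 478, 447, 544, 511.5 and 945 CPM. The members hsp-4, hsp-3 and crt-1, all with several rows, were under 5 CPM.

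Of the other stress lists, those of osmotic stress, pathogens, starvation and food, oxidative stress and hypoxia were highest in replicate 5. The osmotic stress list summed to 73.1, 316, 193, 214 and 487 CPM, led by the inositol transporter hmit-1.1 at 26.98, 135, 114, 122 and 338 CPM. The glycerol synthesis gene gpdh-1 was at 12.27, 49.6, 27.2, 28.3 and 63.3 CPM. The pathogen response list summed to 175, 233.8, 241, 266 and 478 CPM, and the starvation and food list to 358, 367, 567, 577 and 862 CPM. Its members at 5 CPM were acs-2, fat-7, icl-1 and fat-5, and its sum is not read as a starvation response. The oxidative stress list summed to 641.5, 620.0, 616.6, 611.2 and 853.7 CPM, lowest in replicate 4, and the hypoxia list to 149.8, 145.7, 159.4, 156.4 and 295.0 CPM, lowest in replicate 2. The list of the mitochondrial stress response was highest in replicate 2 and lowest in replicate 5, and summed to 2538, 2600, 2512, 2421 and 2094 CPM, with 1 of 6 members spanning 2-fold. Summed levels of low and high collagens, yolk and oocyte genes moved between the same libraries, and their part in these lists was not tested.

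At the other end, 715 of 3588 genes at 50 CPM or more (19.9%) had a highest library that exceeded the lowest by less than 25%. Without replicate 5 the number was 1875, and without replicate 1 it was 1089. The 12 with the lowest SD of log2 CPM were mtch-1, nrde-2, snap-29, Y39A1A.24, usp-50, C06A1.3, B0495.9, pbs-6, rpn-11, C30H6.9, F17A9.5 and cerk-1, with SDs of 0.0254 to 0.0384. In 8 of the 12 this SD was at or under the SD that counting error alone gives, so their order carries no weight. The mitochondrial carrier homologue mtch-1 (chromosome II, 7372615 to 7374166, minus strand), which had 2 rows, was at 242, 246, 251, 248 and 241 CPM. The nuclear RNA interference gene nrde-2 was at 337, 350, 355, 350 and 352 CPM, and the membrane fusion gene snap-29 at 164, 167, 160, 163 and 169 CPM. The proteasome gene pair pbs-6, a core particle subunit, and rpn-11, a lid subunit, stood at 472 ± 11.2 and 386 ± 9.84 CPM (SD, n = 5). Of the exon bases of Y39A1A.24, 1708 of 1709 overlap another gene, so its value may hold reads of both.

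The choice of these 12 rests on small differences. Without replicate 5, none of the 12 was among the 12 steadiest, and with library totals in place of scaled libraries 1 was. By class, of RNA processing and splicing genes 3 of 78 spanned 2-fold, of translation factors 2 of 31, and the median SD of proteasome and ubiquitin genes was 0.141. Within their narrow range 59 of the 78 RNA processing genes were lowest in replicate 5, against 39.1% of all genes, and 50 were highest in replicate 1, against 29.5%.

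**Figure D5:**
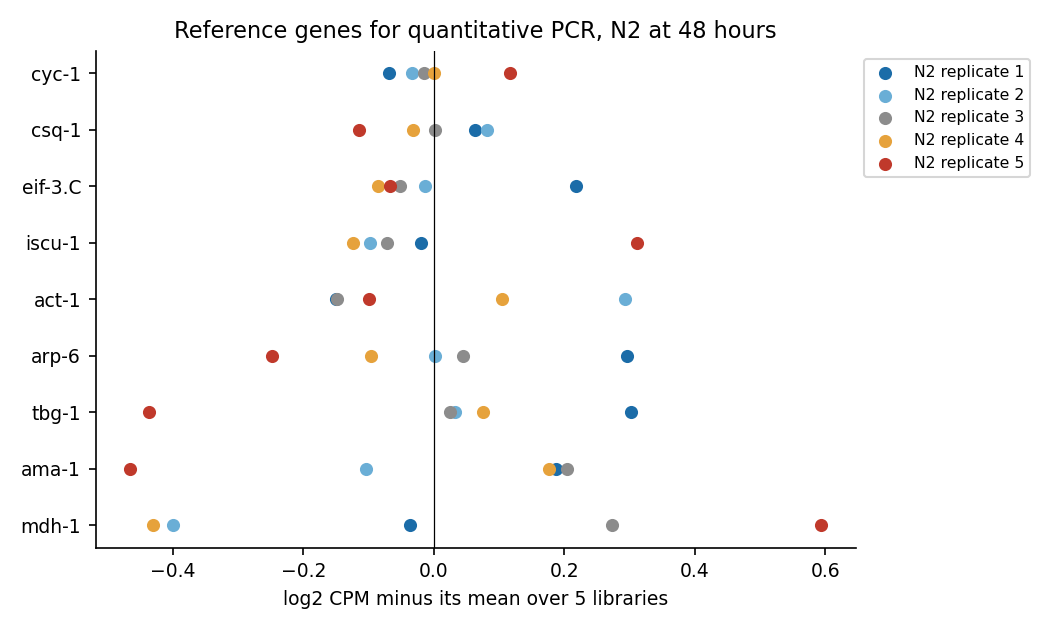
Log2 CPM of 9 reference genes for quantitative PCR in each N2 library, minus the gene's mean over 5 libraries (horizontal), with genes in order of their SD from top to bottom. The points of cyc-1 lie close to the zero line, those of mdh-1 reach 0.6 in replicate 5, and replicate 5 is the lowest point of ama-1, tbg-1 and arp-6.

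Genes in common use as references for quantitative PCR had SDs of log2 CPM from 0.070 for cyc-1 to 0.44 for mdh-1, with a median of 0.194 over the list. Of 19 listed genes 18 were found and 9 reached 5 CPM; the remaining 9 all had several rows. The steadiest of the 9 was the cytochrome c1 gene cyc-1, at 1037, 1063, 1076, 1088 and 1179 CPM. Next was csq-1, for calsequestrin, at 609, 617, 583, 570 and 538 CPM. The RNA polymerase II gene ama-1 was at 375, 307, 380, 373 and 239 CPM, with a highest library 1.59 times the lowest, and the gamma-tubulin gene tbg-1 at 192, 159, 158, 164 and 115.1 CPM. Both were lowest in replicate 5. Only mdh-1, a malate dehydrogenase gene with 3 rows, spanned 2-fold, at 32.1, 25.0, 39.8, 24.5 and 49.7 CPM. The actin gene act-1, with 4 rows, was at 135, 184, 136, 162 and 140 CPM.

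Genes of the X chromosome differed from those of the autosomes in which library was highest. Of 1126 X-linked protein-coding genes at 5 CPM, 620 (55.1%) were highest in replicate 5, where the share on the autosomes ran from 25.3% on chromosome I to 41.9% on chromosome V. Over all 8926 genes it was 35.3%. Of the X-linked genes 437 (38.8%) spanned 2-fold, against 16.9% on chromosome I and 33.1% on chromosome V. Protein-coding genes of the X chromosome held 10.01, 10.09, 10.36, 10.55 and 12.22% of all counts, highest in replicate 5. Protein-coding genes of chromosome I held 20.3, 19.6, 19.5, 18.8 and 18.1%, lowest in replicate 5. Ribosomal RNA genes, such as rrn-3.1 on chromosome I, are not in these shares. In worms the X chromosome is known to be poor in genes of the germ line, whose class was lowest in replicate 5 as given above; its part in this difference was not tested.

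The 5 libraries of the other strain, which had no part in choosing the genes, gave a second view of the spread. Of 8698 genes at 5 CPM in both strains, 2133 (24.5%) spanned 2-fold among the F01D4.5(baf20) libraries, and 1515 did so in both strains. That is 72.8% of the 2081 N2 genes and 71.0% of the 2133. Much of this overlap went with the library numbered 5: of the 2230 N2 genes 73.2% spanned 2-fold over all 5 libraries there and 26.4% over its replicates 1 to 4, where 8.63% of all 8698 genes did. The 12 most variable N2 genes had a median SD of 2.28 there and all 12 spanned 2-fold, while the 12 steadiest had a median SD of 0.127, against 0.218 for all genes at 50 CPM. There too the library numbered 5 stood apart, with a chi-square of 130 to 149 for each degree of freedom against the others, and replicates 1 and 2 were close, with 2.6. Without that library the median SD of the 12 most variable genes was 0.776, where that of all 8698 genes was 0.174, and 8 of the 12 spanned 2-fold. The median SD of the 12 steadiest was then 0.102, against 0.13 for all genes at 50 CPM.

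Some of the N2 patterns had a counterpart there in other libraries. The heat shock list summed to 47.8, 51.6, 472, 330 and 704 CPM in F01D4.5(baf20) replicates 1 to 5, with replicates 1 and 2 low. The gene F01D4.5 itself, after which that strain is named, lies on chromosome IV (10482624 to 10483657, minus strand) and had 2 rows. In N2 it was at 14.2, 11.4, 11.8, 9.82 and 6.44 CPM, a mean of 10.8 ± 2.89 CPM (SD, n = 5). Its highest library was replicate 1 and its lowest replicate 5, and it spanned 2-fold over all 5 libraries with an SD of log2 CPM of 0.42, and 0.22 over replicates 1 to 4.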

How the data were processed

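Messenger RNA of whole N2 worms was measured in 5 libraries. The authors deposited, per sample, whole-number counts per transcript row, not normalized. Per the submitters' processing notes the tools were CASAVA, HISAT2, HTSeq and DESeq2, and the builds named are ce10 and ce11; versions, the build used for counting, the strand setting and the handling of multiply mapped reads are not given in the sources used here. Extraction used QIAzol lysis and miRNeasy columns, per the labels' protocols, and samples with an RNA quality number above 7 were accepted.

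Rows were matched by name to Ensembl release 115 and RefSeq genes on WBcel235, whose coordinates are given, and summed per gene. No row held unassigned reads. Libraries were scaled by TMM over the N2 libraries (edgeR 4.0.16, R 4.3.3; Python 3.11.15, pandas 2.3.3, numpy 2.4.6), and log2 CPM used a prior count of 2. The spread of genes was described at a mean of at least 5 CPM and steadiness at 50 CPM; the biological coefficient of variation is the root of the common dispersion of an intercept-only fit. This estimate was tested on simulated data. Per-kilobase values use the union of a gene's exons. With 5 libraries, an SD is itself imprecise, and limits from counts cover counting error only.

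No test was made; libraries far from the other 4 were marked by a gap rule as a description. Genes were named by a rule: F01D4.5, the 20 highest by CPM, the 10 highest per kilobase, the 12 steadiest, the 12 most variable and the 6 most variable in replicates 1 to 4, up to 3 members with the most counts of each of 38 classes and 26 lists, and the listed reference genes; one reference gene is not reported here. The classes, lists and genes were chosen with earlier results of these data known, and class patterns that caught unrelated names were corrected after values were seen. Alternatives were library totals, DESeq2 1.42.0 size factors, upper-quartile factors, other minimum levels, a prior count of 0.5, counts per kilobase, genes with 1 row only, rRNA left out, and each library left out.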

Additional observations from a re-analysis of the deposited data

Results flagged for a closer look

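The rule was applied to 94 of the sets of 5 values behind the text, not to all of them. Of these 94, 24 had a highest or lowest library that lay far from the other 4. The gap had to be more than 0.71 of the whole range. Chance alone gives such a gap in about 1 of 20 sets drawn without regard to their values. That rate does not apply here as a test, since many of the genes were chosen for a large or small spread among the same libraries and the sets overlap. In 20 of the 24 the library was replicate 5, in 2 replicate 4, and in 1 each replicate 1 and replicate 2. The groups with several genes were, in percent of counts, ribosomal RNA at 2.81 in replicate 4, and moulting and apical matrix genes at 0.524, lipid genes at 1.98, detoxification enzymes at 0.733 and secretory pathway chaperones at 0.966 in replicate 5. In summed CPM they were the male tail list at 56.6 and the endoplasmic reticulum stress list at 1104, both high in replicate 5. Some sets outside the 94, such as the hypoxia and oxidative stress lists, also had replicate 5 far above the other 4.

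Single genes high in replicate 5 were the cuticle genes col-172 at 60.4, col-131 at 129, cut-2 at 141, dpy-5 at 768 and rol-6 at 253 CPM, the hedgehog-related gene grd-5 at 391 CPM, lips-9 at 37.9 CPM, lgc-21 at 93.0 CPM, the alpha-tubulin gene tba-4 at 694 CPM and the desaturase gene fat-7 at 295 CPM. Housekeeping genes high in that library were COX1 at 7389, COX3 at 5067 and rps-25 at 5848 CPM. The body wall myosin gene myo-3 was low in replicate 5, at 425 CPM, where the other 4 libraries ran from 513 to 537 CPM. Replicate 4 was high for rrn-3.1 at 27645 CPM, replicate 2 was high for myo-2 at 228 CPM, and replicate 1 was low for nrde-2 at 337 CPM, a gene with a narrow range among the libraries.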

How the results depend on the processing

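No paired analysis was possible because the results come from no test between groups. On the per-kilobase scale, functional classes held 55.5% of counts in place of 47.4%, 288 genes held 50% of them, the top 10, 100 and 1000 held 9.57, 36.1 and 69.2%, and 12 of the 20 highest genes were shared. Without a library in turn these shares and ranks ranged over 47.2 to 47.7%, 500 to 518 genes, 6.1 to 6.78%, 27.05 to 27.8%, 62.2 to 62.6% and 18 to 19 of 20 genes. The number of genes spanning 2-fold was 2230; a 4 times higher minimum gave 1115, no minimum beyond 1 count in each library gave 5942, and leaving out a library gave 713 (without replicate 5, with libraries rescaled and genes chosen anew) to 2195. The number of genes with a range under 25% was 715, with 200 and 1285 under those 2 minimums and 715 to 1875 without a library. The median SD was 0.253, 0.335 with no minimum, and 0.174 to 0.281 without a library; the coefficient of variation was 0.293, and 0.176 to 0.329 without a library. In each case replicate 5 gave the lowest spread when left out; fewer low genes were tested under the higher minimum, and otherwise the cause was not tested. Of the 12 steadiest genes, library totals kept 1, upper-quartile factors 4, and leaving out a library 0 to 4; of the 12 most variable, leaving out a library kept 6 to 12. In the other strain, leaving out a library, an alternative chosen after seeing the data, gave medians of 0.102 to 0.145 for the steadiest and 0.776 to 2.6 for the most variable genes. The heat shock fold of 15.1 was 4.54 without replicate 2 and 10.2 without replicate 1; the share of X-linked genes highest in replicate 5 was 49.7% with library totals; 72 to 95 collagens spanned 2-fold without a library. Genes at 5 to 10 CPM rest on few counts, and genes with several rows on part of their reads.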

Other observations

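Of 268 nuclear hormone receptors, ligand-regulated transcription factors that are unusually numerous in worms, 84 reached 5 CPM; 74 of these were highest in replicate 5, against 35.3% of all genes, and 39 (46.4%) spanned 2-fold, against 25.0%. Chemoreceptors, the largest receptor families of the worm, were counted at low levels, with 8 of 1307 members at 5 CPM. F-box and BTB proteins, many of which recruit targets for ubiquitin ligases, had 105 of 443 members at 5 CPM, of which 42 were lowest in replicate 5 and 33 lowest in replicate 1, near the 39.1% and 26.9% of all genes, and 39 (37.1%) spanned 2-fold.

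Among cytoskeletal genes the alpha-tubulin gene tba-4 was at 190, 184, 260, 228 and 694 CPM, highest in replicate 5, while profilin pfn-1 was at 440, 414, 353, 334 and 292 CPM, lowest there. Among histones hil-5, a linker histone, was at 369, 475, 324, 372 and 228 CPM, highest in replicate 2. The stearoyl-CoA desaturase fat-7 was at 110, 49.6, 78.7, 85.6 and 295 CPM, lowest in replicate 2 and highest in replicate 5. No explanation was tested for any of these values.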
